A study of Homo sapiens with 15 samples.

Results

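DIO2 and PIK3R3 had the largest falls of all reasonably expressed genes when MRC5 fibroblasts were co-cultured with H196 cells, and they are described here together with 5 other genes for subunits of phosphoinositide 3-kinase (PI3K), namely PIK3R1, PIK3R2, PIK3CA, PIK3CB and PIK3CD. These 7 genes were taken by symbol from the gene tables of both cell lines, which together list 17138 genes (16382 in the MRC5 table and 16076 in the H196 table, with all 7 in both). MRC5 is a line of normal human lung fibroblasts, H69 a neuroendocrine (NE) small cell lung cancer (SCLC) line, and H196 a non-neuroendocrine (non-NE) SCLC line. The 5 groups were MRC5 grown alone (MRC5_Mo), MRC5 with H69 (MRC5_CoH69), MRC5 with H196 (MRC5_CoH196), H196 grown alone (H196_Mo) and H196 with MRC5 (H196_Co), each with 3 libraries, 15 in all. Cells were kept for 7 days, with the inducing cells on a porous insert above the cells that were sequenced, so that the partners shared medium without touching. MRC5 was maintained in MEM and the SCLC lines in an RPMI medium, and the medium of the shared wells is not given in the sources used here. The sources speak of 3 parallel replicates per group without saying whether these were separate cultures, so p-values measure the spread between these libraries, which may be technical.

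DIO2 encodes the type 2 iodothyronine deiodinase, a selenoprotein that removes an outer-ring iodine from the prohormone thyroxine (T4) and so makes the active hormone T3 inside the cell. Its transcription is known to respond to cAMP, and its protein is known to be turned over through ubiquitin ligases. Class IA PI3K is a dimer of a catalytic subunit (p110, encoded by PIK3CA, PIK3CB or PIK3CD) and a regulatory subunit that stabilises it and docks it to tyrosine-phosphorylated receptors and adaptors (p85α and shorter forms from PIK3R1, p85β from PIK3R2, p55γ from PIK3R3). The lipid it makes recruits AKT kinases, which in turn keep FOXO transcription factors out of the nucleus.

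In the annotation of the deposited tables (GRCh38.p13), DIO2 (gene ID 1734) lies on chromosome 14 from 80197526 to 80231057 and PIK3R3 (gene ID 8503) on chromosome 1 from 46040140 to 46174901. PIK3R1 (5295) lies on chromosome 5 from 68215737 to 68319937, PIK3R2 (5296) on chromosome 19 from 18153163 to 18170532, PIK3CA (5290) on chromosome 3 from 179148114 to 179240093, PIK3CB (5291) on chromosome 3 from 138648198 to 138834928, and PIK3CD (5293) on chromosome 1 from 9629889 to 9729114. The values are sums over whole genes and do not tell which transcript start was used. RefSeq also annotates an antisense RNA, DIO2-AS1, across part of DIO2 and a readthrough gene, P3R3URF-PIK3R3, across PIK3R3. Whether the libraries kept the strand is not stated, so reads of DIO2 and of its antisense partner could not be told apart. Reads of PIK3R3 and of the readthrough transcript could not be told apart either.

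The 250 bases before a RefSeq start of DIO2 and of PIK3R3 (GRCh38.p14, minus strand, 5′ to 3′) are printed because these genes showed the falls that the description turns on. For each gene the start farthest upstream in its main group of neighbouring starts was used. Capitals in the DIO2 window mark a cAMP response element (TGACGTCA), which begins 96 bases before the start, and a TATA box (TATAAA) 31 bases before it. Capitals in the PIK3R3 window mark a pair of CCAAT boxes, one in each orientation, which begin 122 and 83 bases before the start.
DIO2, chr14:80212179-80212428: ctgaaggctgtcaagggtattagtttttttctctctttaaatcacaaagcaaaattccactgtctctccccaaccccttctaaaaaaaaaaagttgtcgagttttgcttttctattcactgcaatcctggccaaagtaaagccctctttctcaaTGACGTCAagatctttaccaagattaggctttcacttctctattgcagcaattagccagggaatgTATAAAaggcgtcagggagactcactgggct
PIK3R3, chr1:46133037-46133286: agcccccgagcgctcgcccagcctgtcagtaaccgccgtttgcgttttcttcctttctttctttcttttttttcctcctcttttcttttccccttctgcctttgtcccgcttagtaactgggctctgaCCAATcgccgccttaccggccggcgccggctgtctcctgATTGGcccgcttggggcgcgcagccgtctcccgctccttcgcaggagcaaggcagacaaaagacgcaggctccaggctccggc

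Both strands of all 35116 RefSeq windows of this length were searched for the same letters. TGACGTCA was in 1.65% of windows, TATAAA in 10.7% and CCAAT in 32%. Neither printed window held a FOXO site (GTAAACA, in 2.98% of windows) or a hypoxia response core (ACGTG or GCGTG, in 43.2% of windows). The other RefSeq start of DIO2 had none of these motifs before it. Of the 5 other starts of PIK3R3, 4 had a hypoxia response core, 2 a CCAAT box, 1 a TATA box, and 0 a cAMP response element or a FOXO site. These matches describe the letters of the windows only.

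The libraries held 16073597 to 19170560 counts in genes, and a count of 0 would allow a level of up to 0.156 to 0.187 CPM (counts scaled to the library total), for counting error only. Levels are given as the authors' FPKM (fragments scaled by gene length and by the mapped total of the library), which can be set side by side between genes. The tables of the cell lines were made separately, so levels set across MRC5 and H196 are descriptions. Fold changes come from edgeR's quasi-likelihood test on the counts, on the CPM scale with TMM scaling, with p-values adjusted by Benjamini-Hochberg over all genes tested (12819 in MRC5, 12806 in H196). DEGs are genes whose adjusted p was under 0.05 and whose log2 fold change was above 0.58 or below -0.58. In MRC5_CoH196 against MRC5_Mo, 2207 DEGs were higher and 1885 lower on the count scale, but 915 higher and 2081 lower on log2(FPKM + 1), where the median over all genes was shifted by -0.13.

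DIO2 was high in MRC5_Mo and MRC5_CoH69, low in MRC5_CoH196 and near the detection limit in H196 cells. In MRC5_Mo the 3 libraries had 8.37, 7.65 and 6.68 FPKM. In MRC5_CoH69 they had 9.35, 9.21 and 9.27 FPKM. In MRC5_CoH196 they had 0.89, 0.89 and 0.90 FPKM. The lowest MRC5_Mo library thus lay far above the highest MRC5_CoH196 library, and the 3 groups of MRC5 libraries did not overlap. H196_Mo had 0.10, 0.09 and 0.07 FPKM and H196_Co had 0.10, 0.06 and 0.08 FPKM, which rest on 6 to 10 counts per library. In the order of mean FPKM (9.28 in MRC5_CoH69, 7.57 in MRC5_Mo, 0.893 in MRC5_CoH196, 0.0867 in H196_Mo and 0.08 in H196_Co), only the H196 groups overlapped with their neighbour.

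PIK3R3 was also lowest in MRC5_CoH196, but unlike DIO2 it was highest in H196 cells. MRC5_Mo had 5.01, 4.98 and 4.91 FPKM. MRC5_CoH69 had 4.50, 4.16 and 5.21 FPKM, a range that spans that of MRC5_Mo. MRC5_CoH196 had 0.65, 0.80 and 0.62 FPKM, from 58 to 74 counts per library. All 3 of these libraries lay below every other library of the series. H196_Mo had 14.79, 12.68 and 13.29 FPKM and H196_Co had 8.85, 9.46 and 8.22 FPKM, with no overlap between them. In the order of mean FPKM (13.6 in H196_Mo, 8.84 in H196_Co, 4.97 in MRC5_Mo, 4.62 in MRC5_CoH69 and 0.69 in MRC5_CoH196), only MRC5_Mo and MRC5_CoH69 overlapped.

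**Figure D1:**
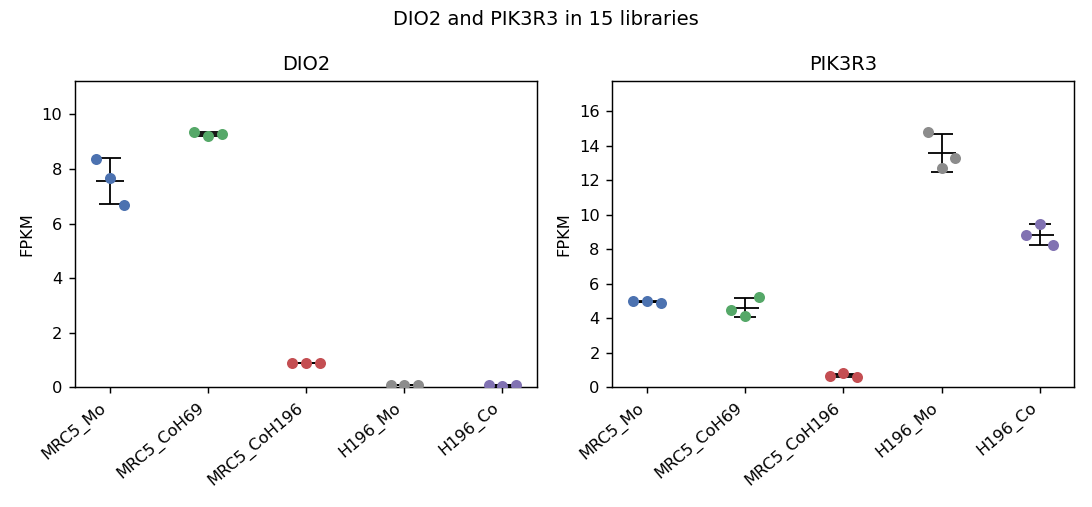
FPKM of DIO2 (left) and PIK3R3 (right) in each library (points, 3 per group), with the mean (bar) and SD (whiskers) of each group. In both panels the MRC5_CoH196 libraries lie below the other MRC5 libraries, at 0.89 to 0.90 FPKM for DIO2 and 0.62 to 0.80 FPKM for PIK3R3, while the H196 libraries are the lowest for DIO2 and the highest for PIK3R3.

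Both genes were selected on their fall in MRC5_CoH196 against MRC5_Mo, so the values of this comparison are given without a test. DIO2 was 7.56-fold lower (log2 fold change -2.92, SE 0.091), and PIK3R3 was 6.53-fold lower (log2 fold change -2.71, SE 0.10). Among the 1158 lower DEGs that averaged 10 CPM or more and whose groups did not overlap (75.5% of all tested genes had groups that did not overlap), DIO2 came first and PIK3R3 second. Next in that order were GDF5, a growth factor of the BMP family, at -2.69, RAB7B, a small GTPase of endosomal traffic, at -2.58, SLIT2, a secreted guidance cue, at -2.49, and TFRC, the transferrin receptor, at -2.22. The order thus has no gap after PIK3R3. Without the limit on the mean level, DIO2 was the 14th and PIK3R3 the 19th lowest of all 12819 genes tested. Against MRC5_CoH69, which shares the MRC5_CoH196 libraries with this comparison, DIO2 was lower by a log2 fold change of -3.23 (SE 0.088) and PIK3R3 by -2.62 (SE 0.10).

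Fibroblast markers went both ways in the same comparison. Of 10 markers tested in MRC5_CoH196 against MRC5_Mo, 5 were higher and 4 lower at an adjusted p under 0.05, with 1 higher and 2 lower as DEGs. The collagens COL1A1 (log2 fold change -1.57) and COL3A1 (-2.09) fell, and PDGFRB, a growth factor receptor of fibroblasts, rose (0.67). PDGFRA (0.33) and LUM (0.30) were higher below the DEG limit, and THY1 did not pass the test (-0.07). The summed level of the 10 markers, most of which came from COL1A1 and COL1A2, was 14140 to 14577 CPM in MRC5_CoH196, 25873 to 28840 CPM in MRC5_Mo and 29716 to 31113 CPM in MRC5_CoH69. In H196 cells it was 2.32 to 3.24 CPM, with COL1A2 and THY1 at 0 or not listed in H196_Mo. The 9 neuroendocrine markers summed to 0.628 to 1.43 CPM in MRC5 libraries, with NEUROD1, INSM1, CHGA and GRP among those at 0 or not listed in all MRC5 groups. They summed to 65.1 to 71.6 CPM in H196 cells, with INSM1 and GRP at 0 or not listed. Most of this sum came from CHGB (38.6 to 43.3 CPM), SYP (16.9 to 18.9 CPM) and DLL3 (6.07 to 9.38 CPM). The 5 epithelial markers summed to 120 to 162 CPM in MRC5 and 208 to 285 CPM in H196 cells, and YAP1 and REST, which mark non-NE SCLC, to 316 to 407 CPM and 200 to 264 CPM. The part of the marker changes in the falls of DIO2 and PIK3R3 was not tested. In bulk RNA fewer cells of a type and less RNA per cell cannot be told apart.

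With H69 as partner, DIO2 was higher and PIK3R3 did not pass the test. DIO2 was higher in MRC5_CoH69 than in MRC5_Mo 1.24-fold (log2 fold change 0.31, SE 0.062, adjusted p = 0.00238, edgeR), with all 3 libraries above every MRC5_Mo library. This rise was below the DEG limit and did not pass on the FPKM scale (adjusted p = 0.0572 with limma on log2(FPKM + 1)). The MRC5_Mo libraries had already served in choosing the gene, and in this comparison 3.78% of all tested genes were higher and 2.93% lower at an adjusted p under 0.05 (0.421% and 0.133% as DEGs). Higher groups that did not overlap were seen for 13.6% of all tested genes. PIK3R3 did not differ beyond the spread of its libraries (log2 fold change -0.09, 95% interval -0.23 to 0.05, adjusted p = 0.539).

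DIO2 and PIK3R3 were chosen on a fall in MRC5 libraries, and the comparison within H196 cells uses other libraries. Earlier results of these data were known when the genes were chosen. PIK3R3 was lower in H196_Co than in H196_Mo 1.47-fold (log2 fold change -0.55, SE 0.076, adjusted p = 3.3e-05, edgeR), with all 3 libraries below every H196_Mo library. In this comparison 7.78% of tested genes were lower at an adjusted p under 0.05, 17.1% had lower groups that did not overlap, and PIK3R3 was the 150th lowest of 12806. The fall did not reach the DEG limit of 0.58 (it was a DEG under 3 of 13 alternatives), and 0.601% of tested genes were DEGs that were lower. The difference in log2 fold change between the cell lines, H196 minus MRC5, was 2.18 (SE 0.13) for PIK3R3, given as a description because the MRC5 fall chose the gene. In H196 cells the counts of DIO2 were too low for the filter, and it was not tested. Its CPM was 0.605, 0.360 and 0.486 in H196_Co and 0.536, 0.508 and 0.399 in H196_Mo, ranges that overlap.

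The other regulatory subunits showed no fall of that size. PIK3R1 had 3.88, 3.89 and 3.9 FPKM in MRC5_Mo and 3.86, 3.94 and 3.41 FPKM in MRC5_CoH196. PIK3R2 had 34.87, 33.91 and 35.64 FPKM in MRC5_Mo and 32.07, 31.46 and 31.68 FPKM in MRC5_CoH196. Against MRC5_Mo the log2 fold change in MRC5_CoH196 was 0.08 for PIK3R1 (adjusted p = 0.274) and 0.04 for PIK3R2 (adjusted p = 0.408), and on log2(FPKM + 1) both signs turned, to -0.048 (adjusted p = 0.421) and -0.13 (adjusted p = 0.0171). On the count scale the 95% intervals were -0.05 to 0.20 for PIK3R1 and -0.05 to 0.13 for PIK3R2, and 74.3% of all tested genes passed an adjusted p of 0.05 in this comparison. In MRC5_CoH69 PIK3R1 had 3.95, 3.76 and 4.06 FPKM and PIK3R2 had 35.83, 37.51 and 35.97 FPKM, with adjusted p of 0.726 and 0.326 against MRC5_Mo. In H196 cells PIK3R1 had 3.96, 3.82 and 3.98 FPKM alone and 3.06, 3.49 and 3.40 FPKM with MRC5 (log2 fold change -0.15, adjusted p = 0.256). PIK3R2 had 23.66, 25.31 and 24.63 FPKM alone and 20.30, 23.23 and 23.27 FPKM with MRC5 (log2 fold change -0.07, adjusted p = 0.572).

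Because levels per length can be set side by side, the make-up of the regulatory pool could be described. PIK3R2 was the most abundant regulatory subunit in every library. PIK3R3 held 11.4% ± 0.304 (SD, n = 3) of the summed FPKM of the 3 regulatory genes in MRC5_Mo and 10.3% ± 1.18 (SD, n = 3) in MRC5_CoH69, but 1.91% ± 0.263 (SD, n = 3) in MRC5_CoH196. It held 32.3% ± 2.33 (SD, n = 3) in H196_Mo and 25.7% ± 1.99 (SD, n = 3) in H196_Co. The share of PIK3R1 stayed between 8.28% and 10.9% in all 15 libraries. The summed FPKM of the 3 genes was 43.7 ± 0.839 in MRC5_Mo, 45 ± 0.616 in MRC5_CoH69 and 36.2 ± 0.436 in MRC5_CoH196 (SD, n = 3 each). Part of the lower sum in MRC5_CoH196 came from PIK3R2, with a mean of 31.7 FPKM against 34.8 in MRC5_Mo. In counts PIK3R2 did not fall (log2 fold change 0.04), and on log2(FPKM + 1) the median over all genes was shifted by -0.13. The MRC5_CoH196 shares include the fall that chose PIK3R3 and are a description.

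**Figure D2:**
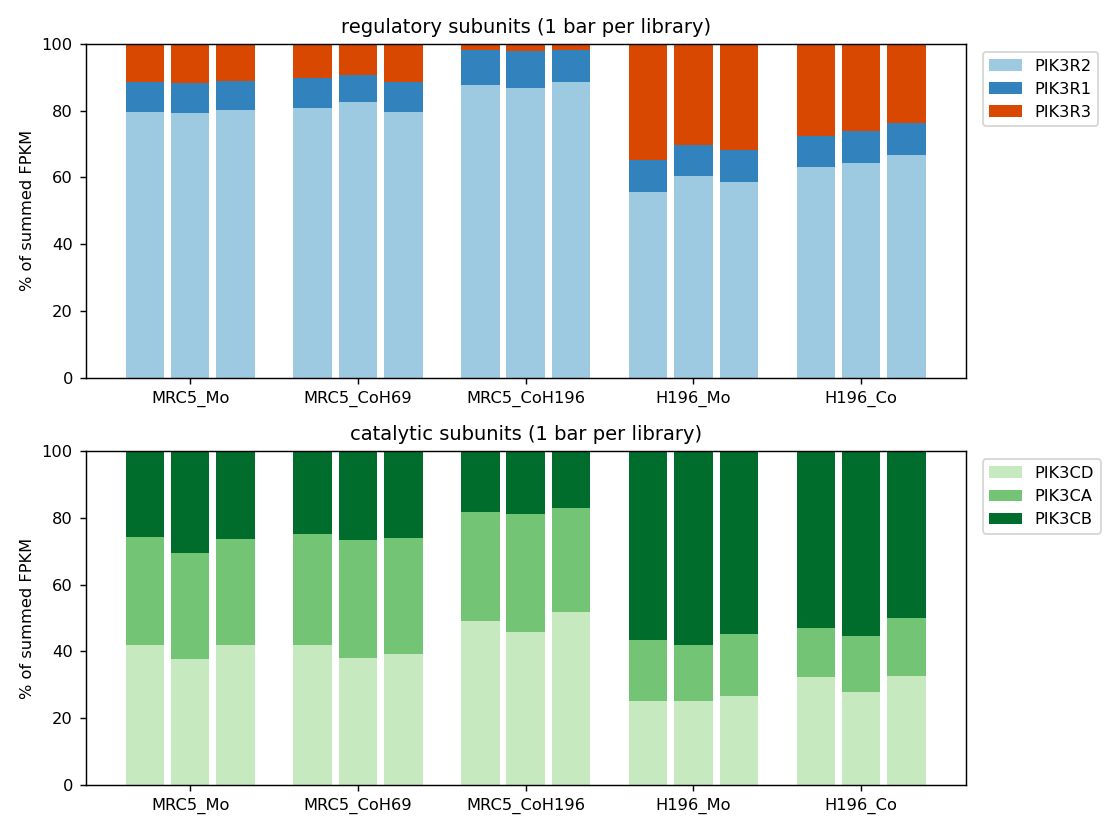
Share of each gene in the summed FPKM of the 3 regulatory subunits (top) and the 3 catalytic subunits (bottom), in percent, with 1 bar per library and 3 bars per group. PIK3R3 holds 1.74% to 2.21% of the regulatory sum in MRC5_CoH196 and 23.6% to 34.9% in H196 cells, and PIK3CB holds the largest catalytic share in H196 cells.

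The catalytic subunits moved in different directions in MRC5_CoH196. PIK3CD, the p110δ subunit best known from leukocytes, had 7.24, 6.21 and 7.10 FPKM in MRC5_Mo and 8.62, 8.71 and 10.06 FPKM in MRC5_CoH196. Every MRC5_CoH196 library was above every MRC5_Mo library, and of these 5 other subunits PIK3CD was the one DEG (log2 fold change 0.60, SE 0.070, adjusted p = 3.55e-08), where 17.2% of all tested genes were DEGs that were higher. PIK3CD lay just past the DEG limit and was a DEG under 10 of 14 alternatives. PIK3CA, the ubiquitous p110α subunit, had 5.60, 5.25 and 5.40 FPKM in MRC5_Mo and 5.73, 6.70 and 6.07 FPKM in MRC5_CoH196. It rose (log2 fold change 0.47, SE 0.059, adjusted p = 1.2e-07) without reaching the DEG limit (0.16 on log2(FPKM + 1), adjusted p = 0.0258), where 37.2% of tested genes were higher at an adjusted p under 0.05. PIK3CB, the ubiquitous p110β subunit, had 4.42, 5.0 and 4.48 FPKM in MRC5_Mo and 3.19, 3.57 and 3.34 FPKM in MRC5_CoH196. It fell by 0.28 on the log2 scale (SE 0.071, adjusted p = 0.00115), again below the DEG limit and with no overlap, where 37.1% of tested genes were lower at an adjusted p under 0.05.

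Against MRC5_CoH69 the same directions were seen. MRC5_CoH69 had 7.50, 6.41 and 7.24 FPKM of PIK3CD, 5.93, 5.96 and 6.36 FPKM of PIK3CA, and 4.45, 4.49 and 4.80 FPKM of PIK3CB. PIK3CD was higher in MRC5_CoH196 (log2 fold change 0.53, adjusted p = 2.77e-07) and PIK3CB lower (-0.26, adjusted p = 0.00212), where 35.7% of tested genes were higher and 36.6% lower at an adjusted p under 0.05. PIK3CA was higher by 0.32 (adjusted p = 3.56e-05), but by 0.015 (adjusted p = 0.817) on log2(FPKM + 1), where the ranges of its FPKM overlap. In MRC5_CoH69 against MRC5_Mo, PIK3CA (log2 fold change 0.15, adjusted p = 0.137), PIK3CB (-0.02, adjusted p = 0.927) and PIK3CD (0.07, adjusted p = 0.669) did not pass the test. For PIK3CA every MRC5_CoH69 library still lay above every MRC5_Mo library (95% interval 0.03 to 0.27). Of all tested genes 13.6% had higher groups that did not overlap in that comparison.

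In H196 cells PIK3CB was the leading catalytic subunit. It had 17.01, 16.32 and 15.58 FPKM in H196_Mo and 13.43, 16.06 and 12.89 FPKM in H196_Co, against at most 5.0 FPKM in any MRC5 library. Its share of the summed catalytic FPKM was 56.5% ± 1.73 (SD, n = 3) in H196_Mo and 27.5% ± 2.56 (SD, n = 3) in MRC5_Mo. PIK3CD had 7.6, 7.04 and 7.58 FPKM in H196_Mo and 8.17, 8.11 and 8.42 FPKM in H196_Co, a rise of 0.22 on the log2 scale (SE 0.075) whose adjusted p of 0.0451 was close to the threshold and was lost under 11 of 13 alternatives, where 12% of tested genes were higher at an adjusted p under 0.05. PIK3CA had 5.51, 4.69 and 5.31 FPKM in H196_Mo and 3.71, 4.81 and 4.54 FPKM in H196_Co (log2 fold change -0.18, adjusted p = 0.180). For PIK3CB it was -0.13 (adjusted p = 0.248). The effect of co-culture differed between the cell lines for PIK3CA, by -0.62 (SE 0.11, adjusted p = 3.23e-05, H196 minus MRC5), and for PIK3CD, by -0.35 (SE 0.11, adjusted p = 0.00687). Of 13585 genes tested, 24.1% had a difference below 0 at an adjusted p under 0.05. The difference did not pass for PIK3R1 (-0.19, adjusted p = 0.119), PIK3R2 (-0.08, adjusted p = 0.423) or PIK3CB (0.17, adjusted p = 0.176).

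**Figure D3:**
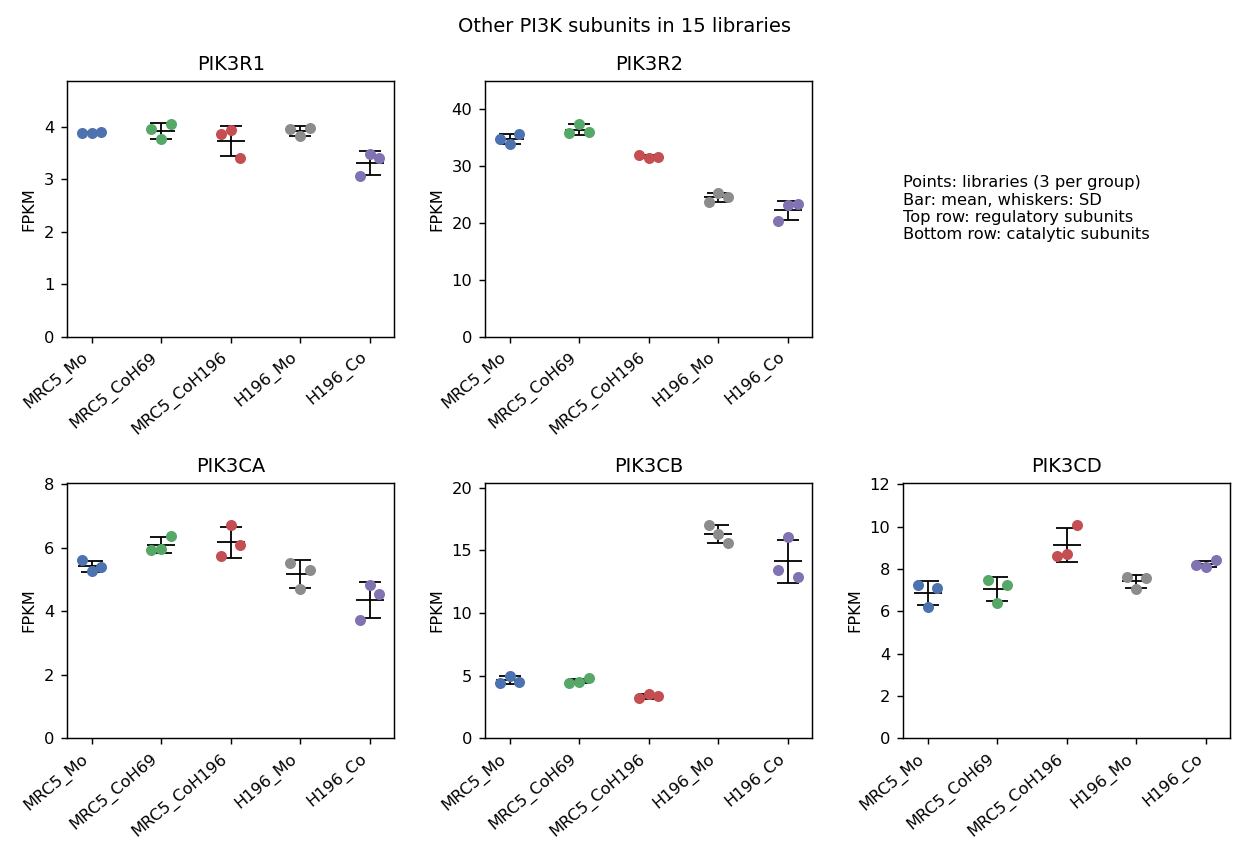
FPKM of PIK3R1, PIK3R2 (top), PIK3CA, PIK3CB and PIK3CD (bottom) in each library (points, 3 per group), with the mean (bar) and SD (whiskers) of each group. PIK3CD is highest in MRC5_CoH196 (8.62 to 10.06 FPKM) and PIK3CB lies at 12.89 to 17.01 FPKM in H196 cells and at 3.19 to 5.0 FPKM in MRC5 cells.

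**Figure D4:**
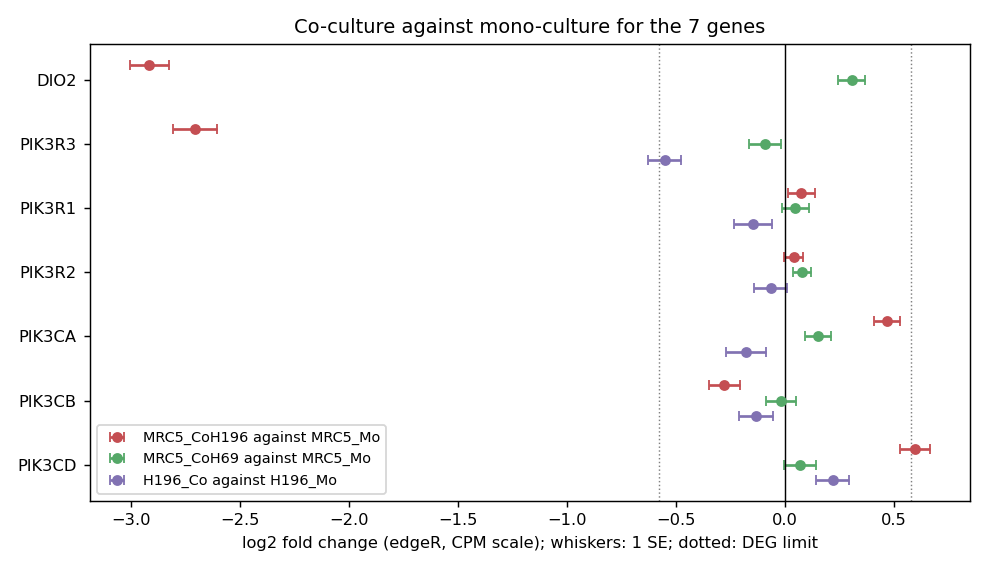
log2 fold changes of the 7 genes (edgeR, CPM scale) in co-culture against mono-culture, with 1 SE as whiskers and the DEG limit of 0.58 as dotted lines; DIO2 was not tested in H196 cells. DIO2 (-2.92) and PIK3R3 (-2.71) stand far left in MRC5_CoH196, where they were chosen, while the other subunits lie between -0.28 and 0.60 in all 3 comparisons.

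DIO2 and PIK3R3 were compared with all tested genes over the 9 MRC5 libraries by the distance between log2 CPM centred on each gene's mean. The gene nearest to DIO2 was PIK3R3 (distance 0.875), followed by GUCY1A1, a subunit of soluble guanylate cyclase, GDF5, RAB7B and COL14A1, a fibril-associated collagen. The genes nearest to PIK3R3 were RAB7B (0.400), GDF5 (0.419), COL3A1 (0.762), SLIT2 (0.780) and TFRC (0.811). All of them were low in MRC5_CoH196. The 9 libraries include those on which DIO2 and PIK3R3 were chosen, and the distance depends on the size of that fall. Their nearness to each other and to the next genes in the order of falls was thus largely set by the choice and is a description. GDF5 had 38.6 ± 2.41 CPM in MRC5_Mo, 33.3 ± 2.62 CPM in MRC5_CoH69 and 5.99 ± 0.448 CPM in MRC5_CoH196 (SD, n = 3 each). RAB7B had 19.9 ± 0.584, 18 ± 0.733 and 3.31 ± 0.456 CPM in the same groups. GUCY1A1 had 0.955 ± 0.235 CPM in MRC5_Mo and 0.057 ± 0.0568 CPM in MRC5_CoH196, which is under the level that a count of 0 allows. Ranked by Pearson's correlation of the same values, which ignores the size of the change, other genes came first (KDM4A for DIO2 and DROSHA for PIK3R3), and PIK3R3 stood 128th for DIO2 (r = 0.987 over 9 libraries, a description over groups that share 1 shift).

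Other genes of thyroid hormone handling rose in MRC5_CoH196 while DIO2 was low. Of 25 genes on this list 16 were tested. Of these 7 were DEGs that were higher and 0 lower (4 and 0 on log2(FPKM + 1)), against 17.2% and 14.7% of all tested genes, with a median log2 fold change of 0.50 against -0.003 over all genes. At an adjusted p under 0.05, 13 were higher and 2 lower, against 37.2% and 37.1% of all tested genes. WSB1, the adaptor of a ubiquitin ligase that marks the DIO2 protein for destruction, rose from 31.5 ± 1.37 to 96.3 ± 7.94 FPKM (log2 fold change 1.89, adjusted p = 2.4e-20). MARCHF6, another ligase of the DIO2 protein, rose from 22.9 ± 0.775 to 39.6 ± 1.04 FPKM (0.98, adjusted p = 3.3e-16). HR, a corepressor of thyroid hormone receptors, rose from 2.44 ± 0.0902 to 5.44 ± 0.445 FPKM (1.32, adjusted p = 1.1e-13). KLF9, a transcription factor known to be induced by T3, rose from 2.94 ± 0.445 to 6.49 ± 0.153 FPKM (1.32, adjusted p = 1.3e-13; SD, n = 3 for each level).

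The other deiodinases were at or near 0. DIO3, which inactivates T4 and T3, had 0 to 2 counts per library in MRC5 cells, and DIO1 is not listed for MRC5 and had 0 to 1 counts in H196 libraries. The receptor gene THRA was higher in MRC5_CoH196 (0.47, adjusted p = 1.0e-08), below the DEG limit and given after its value was seen. With H69, 0 of the 16 genes were DEGs by edgeR or the DESeq2 Wald test, with 3 at an unadjusted p under 0.05 in edgeR. At an adjusted p under 0.05 there were 2 (6.7% of all tested genes), one of them KLF9 (0.47, adjusted p = 0.000776). In H196_Co, WSB1 was the one DEG of the list (3.26% of tested genes were higher DEGs), at 53.9 ± 5.88 FPKM against 26.7 ± 1.81 in H196_Mo (log2 fold change 1.15, adjusted p = 2.6e-09).

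DIO2 is a selenoprotein, and few genes of that class were DEGs in MRC5_CoH196. Of 26 listed genes 23 were tested, and 3 were DEGs that were lower and 0 higher, a share near the 14.7% of all tested genes that were lower DEGs. On log2(FPKM + 1) 5 were lower DEGs and 0 higher. The median log2 fold change was -0.22. At an adjusted p under 0.05, 11 were lower and 3 higher, against 37.1% and 37.2% of all tested genes. MSRB1, a methionine sulfoxide reductase, fell from 21.1 ± 0.345 to 8.67 ± 0.707 FPKM (log2 fold change -1.11, adjusted p = 2.0e-11). SEPHS2, which makes the selenium donor for selenocysteine, fell from 27.6 ± 1.9 to 13.4 ± 0.355 FPKM (-0.87, adjusted p = 1.0e-12). SELENOI, an enzyme of phospholipid synthesis, fell from 3.83 ± 0.11 to 2.07 ± 0.151 FPKM (-0.72, adjusted p = 3.2e-10; SD, n = 3 for each level). TXNRD1, a thioredoxin reductase, had a log2 fold change of 0.0053 (adjusted p = 0.931). In MRC5_CoH69 and in H196_Co 0 of these genes were DEGs by edgeR or the DESeq2 Wald test, while 2 and 8 passed an unadjusted p of 0.05 in edgeR. At an adjusted p under 0.05 there were 0 in MRC5_CoH69, against 6.7% of all tested genes. In H196_Co 2 were higher and 1 lower, against 12% and 7.78% of all tested genes.

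The cAMP list was split. Of 31 genes 25 were tested in MRC5, and 5 were DEGs that were higher and 2 lower in MRC5_CoH196 (3 and 2 on log2(FPKM + 1)), against 17.2% and 14.7% of all tested genes. In counts their median change was 0.17 on the log2 scale, and in FPKM with a pseudocount of 1 it was -0.037. The largest rises were in phosphodiesterases, which degrade cAMP. PDE4C rose from 0.103 ± 0.0153 to 1.63 ± 0.192 FPKM (log2 fold change 4.05, adjusted p = 1.3e-14), from 6 to 10 counts per library in MRC5_Mo. PDE4D rose from 0.307 ± 0.0651 to 1.24 ± 0.0656 FPKM (2.17, adjusted p = 1.2e-12). NR4A1, an immediate early target of cAMP signalling, rose from 3.53 ± 0.251 to 5.83 ± 0.46 FPKM (0.89, adjusted p = 1.8e-08), and the adenylyl cyclase ADCY9 from 10.8 ± 0.323 to 15.2 ± 0.34 FPKM (0.67, adjusted p = 2.9e-12; SD, n = 3 for each level). PDE4C was also the one DEG of the list in MRC5_CoH69 (1.14, adjusted p = 0.0322), a call that did not pass with the DESeq2 Wald test. Of all tested genes 0.421% were higher DEGs there. In H196_Co 3 genes of the list were DEGs, all lower, against 0.601% of all tested genes (1 on log2(FPKM + 1)). NR4A2 fell from 4.35 ± 0.304 to 1.88 ± 0.314 FPKM (-1.12, adjusted p = 2.7e-06), and NR4A3 and PDE3A fell by 1.45 and 1.3 on the log2 scale (adjusted p = 0.000504 and 0.00259) at under 0.5 FPKM.

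Beyond the subunits, more genes around PI3K rose than fell in MRC5_CoH196, among them receptors and adaptors upstream of it. Of 47 listed genes without the 7 described above, 40 were tested, and 13 were DEGs that were higher and 1 lower, against 17.2% and 14.7% of all tested genes. On log2(FPKM + 1) the DEGs were 6 higher and 2 lower. The median log2 fold change was 0.24 (0.051 on log2(FPKM + 1)), and at an adjusted p under 0.05, 23 were higher and 11 lower, against 37.2% and 37.1% of all tested genes. IRS2, an adaptor that recruits PI3K to insulin and IGF receptors, rose from 3.37 ± 0.407 to 12.8 ± 0.689 FPKM (log2 fold change 2.1, adjusted p = 2.4e-19). INSR, the insulin receptor, rose from 1.08 ± 0.136 to 2.61 ± 0.0458 FPKM (1.44, adjusted p = 1.2e-13). IGF1R rose from 8.56 ± 0.352 to 12.7 ± 0.32 FPKM (1.25 in counts, adjusted p = 1.4e-17), a smaller step in FPKM than in counts. RICTOR, the defining subunit of mTORC2, rose from 2.49 ± 0.183 to 5.17 ± 0.37 FPKM (1.22, adjusted p = 1.1e-14; SD, n = 3 for each level). The 1 lower DEG, named after its value was seen, was MTOR (-0.72, adjusted p = 1.1e-12).

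Of the AKT kinases, AKT1 had 99.9 ± 2.39 FPKM in MRC5_Mo (SD, n = 3) and was lower in MRC5_CoH196 by -0.12 on the log2 scale (adjusted p = 0.0122). AKT2 was lower by -0.16 (adjusted p = 0.00156), both below the DEG limit. In H196_Co neither passed the test, with log2 fold changes of 0.17 for AKT1 and 0.02 for AKT2. Of 42 genes of the list tested in H196 cells 0 were DEGs by edgeR or the DESeq2 Wald test, while 6 were higher and 8 lower at an adjusted p under 0.05 (12% and 7.78% of all tested genes) and 23 passed an unadjusted p of 0.05 in edgeR. In MRC5_CoH69 0 of 40 were DEGs by either tool, while 2 passed an adjusted p of 0.05 (6.7% of all tested genes) and 9 an unadjusted p of 0.05.

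Genes known as FOXO targets rose together in MRC5_CoH196. Of 15 listed genes 12 were tested, and 9 were DEGs that were higher and 0 lower, against 17.2% of all tested genes (6 to 12 DEGs over 16 alternatives). All 12 tested were higher at an adjusted p under 0.05 (37.2% of all tested genes), with a median log2 fold change of 1.07. IRS2, INSR and PIK3IP1 are on this list and on the PI3K list. BCL6, a transcriptional repressor, rose from 7.64 ± 0.369 to 23.3 ± 1.92 FPKM (log2 fold change 1.68, adjusted p = 2.6e-17). CCNG2, a cyclin that slows the cell cycle, rose from 8.75 ± 0.513 to 24.4 ± 1.93 FPKM (1.66, adjusted p = 7.6e-17; SD, n = 3 for each level). PDK4, an inhibitor of pyruvate dehydrogenase, had 1 to 9 counts per library in MRC5_Mo and 49 to 65 in MRC5_CoH196 (adjusted p = 5.0e-10). In MRC5_CoH69 0 of the 12 were DEGs by edgeR or the DESeq2 Wald test, and 6 passed an unadjusted p of 0.05 in edgeR. At an adjusted p under 0.05, 3 were higher, against 3.78% of all tested genes, and 0 lower. In H196_Co 10 were tested, 0 were DEGs by either tool, and 5 passed an adjusted p of 0.05, all higher, the same number as without adjustment. Of all tested genes 12% were higher at an adjusted p under 0.05 in that comparison. Against MRC5_CoH69, which shares its MRC5_CoH196 libraries with the comparison above, 7 FOXO targets, 12 PI3K genes, 6 thyroid hormone genes and 4 cAMP genes were DEGs that were higher in MRC5_CoH196, and 3 selenoprotein genes, 2 cAMP genes and 1 PI3K gene were DEGs that were lower, where 15.2% of all tested genes were higher DEGs and 13.1% lower.

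**Figure D5:**
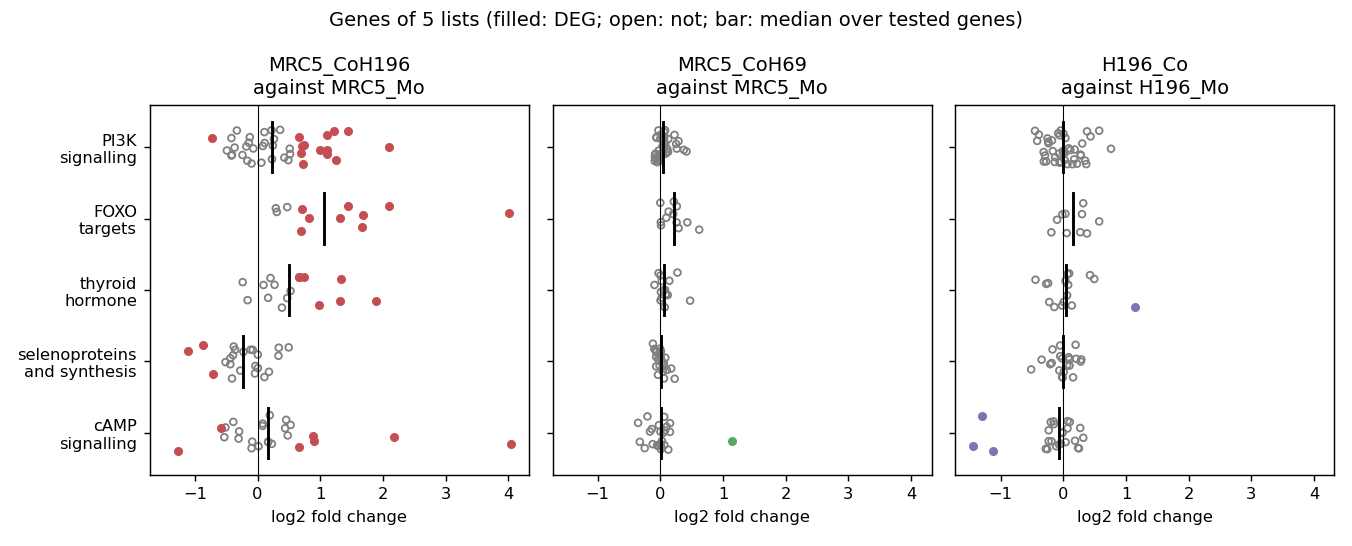
log2 fold changes (edgeR, CPM scale) of the tested genes of 5 lists in 3 comparisons, with DEGs filled, other genes open and the median of each list as a black bar. In MRC5_CoH196 the median is 1.07 for FOXO targets, 0.50 for thyroid hormone genes and -0.22 for selenoproteins, while few genes are filled in MRC5_CoH69 (1) and H196_Co (4).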

How the data were processed

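Poly(A) RNA of 15 libraries was sequenced on a BGIseq-500. Reads were filtered by the authors (SOAPnuke), mapped to GRCh38.p13 (HISAT) and also to gene sequences (Bowtie2), and 1 table per cell line was deposited. The submitters' processing notes name HISAT2 2.1.0, Bowtie2 2.3.4.3 and RSEM 1.3.1 without their roles. The deposited expected counts, which the authors did not normalize, estimate how many reads each gene received, and 93.68% (MRC5) and 92.12% (H196) of them were whole within 1e-9. The deposited FPKM values are the authors' own, given to 2 decimals. The authors' own comparisons between groups (fold changes with their p-values and q-values) were left out, as were 30 further per-library columns.

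Samples were grouped by their titles. Libraries of a group differed by more than sampling noise. Expected counts were rounded and tested in R 4.3.3 with edgeR 4.0.16 (TMM, filterByExpr, quasi-likelihood, two-sided), with 1 model for the 9 MRC5 libraries, 1 for the 6 H196 libraries and 1 for all 15 to compare the effect of co-culture between the lines. A standard error is the log2 fold change over the root of its F statistic, and 95% intervals assume a normal distribution. CPM values are scaled by TMM factors. The script was tested on simulated data. The alternatives were DESeq2 1.42.0 size factors and its Wald test, limma 3.58.1 on FPKM with a pseudocount of 1 or 0.1, other filters and limits, a block for the replicate number, fits of the compared groups alone, and each library left out in turn. All 7 genes had promoter entries in RefSeq (GRCh38.p14).

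The 7 genes, the lists and the tests were chosen with earlier results of these data known. Named list genes were the DEGs with the largest changes, at most 4 per list and comparison, with a mean of at least 1 CPM and groups that did not overlap, plus DIO1, DIO3, AKT1 and AKT2, the 5 genes nearest in pattern to DIO2 and PIK3R3, and those next to them in the order of falls. Some genes that this rule names are not reported here.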

Additional observations from a re-analysis of the deposited data

Results flagged for a closer look

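For a pair of PI3K subunits the effect of co-culture differed between the cell lines by a test of the difference itself. PIK3CA was higher in MRC5_CoH196 than in MRC5_Mo (log2 fold change 0.47) and had a log2 fold change of -0.18 in H196_Co against H196_Mo (adjusted p = 0.180), and the difference, H196 minus MRC5, was -0.62 (SE 0.11, adjusted p = 3.23e-05, edgeR). On log2(FPKM + 1) the rise in MRC5 was 0.16 and the difference -0.37 (adjusted p = 0.00974, limma). PIK3CD was higher in co-culture in both lines (0.60 in MRC5 and 0.22 in H196), and the difference was -0.35 (SE 0.11, adjusted p = 0.00687, edgeR).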

How the results depend on the processing

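DIO2 and PIK3R3 kept the direction of their falls in MRC5_CoH196 under every alternative, and PIK3R3 kept its fall in H196_Co (adjusted p 6.9e-09 to 0.00695 over 13 alternatives). The FPKM scale moved the most values, and it shifted the median of all genes in MRC5_CoH196 against MRC5_Mo by -0.13 (pseudocount 1) and -0.18 (pseudocount 0.1). With limma on log2(FPKM + 1), DIO2 was -2.17 and PIK3R3 -1.82 against MRC5_Mo, -2.44 and -1.73 against MRC5_CoH69, and 2.16 and 1.25 for the difference between the lines, as a pseudocount shrinks the change of low genes. With pseudocounts of 1 and 0.1 in turn, PIK3R1 turned to -0.048 and -0.059 against MRC5_Mo and to -0.057 and -0.071 against MRC5_CoH69. PIK3R2 turned to -0.13 and -0.13 (adjusted p = 0.0171 and 0.0182) against MRC5_Mo and passed at -0.19 and -0.20 against MRC5_CoH69. PIK3CA was 0.16 and 0.18 against MRC5_Mo and lost its call against MRC5_CoH69 (0.015 and 0.017), DIO2 in MRC5_CoH69 against MRC5_Mo (0.27 and 0.30, adjusted p = 0.0572 and 0.10) and PIK3CD for the difference between the lines (-0.23 and -0.26). The rise of PIK3CD in H196_Co lost its call with DESeq2 size factors (0.21, adjusted p = 0.0540), the DESeq2 Wald test (0.21, adjusted p = 0.0835), FPKM (0.14 and 0.15) and no filter (0.22, adjusted p = 0.0571). The cause was not tested.

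With 1 library left out, PIK3CD in H196_Co ranged from 0.19 to 0.25 (not passing without any 1 of 5 of the 6 libraries, all but H196_Co replicate 2), PIK3CB in MRC5_CoH69 from -0.051 to 0.034 (turned without MRC5_CoH69 replicate 1 or MRC5_Mo replicate 2), PIK3CB in H196_Co from -0.22 to -0.083 (passing without H196_Co replicate 2, adjusted p = 0.0446), the difference between the lines from -0.28 to -0.12 for PIK3R1 (passing without MRC5_CoH196 replicate 3, adjusted p = 0.0354) and from 2.04 to 2.23 for PIK3R3. DEGs over all lists numbered 37 in MRC5_CoH196 against MRC5_Mo (18 with a limit of 1, 90 with none), 33 against MRC5_CoH69 (18 and 81), and 4 in H196_Co (34 with no limit, 2 on log2(FPKM + 1)). In MRC5_CoH69 against MRC5_Mo there was 1, PDE4C, with 8 for no limit and 0 for the DESeq2 Wald test, log2(FPKM + 1) and at least 10 counts in every library, and 0 to 1 with 1 library left out (0 without MRC5_CoH69 replicate 1 or 2 or MRC5_Mo replicate 2 or 3). On log2(FPKM + 1) the DEGs fell to 8 on the PI3K list and 4 on the thyroid hormone list and were 5 on the selenoprotein list (6 with a pseudocount of 0.1), and 3 cAMP genes were left with at least 10 counts in every library.

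Same-numbered libraries did not deviate together (correlations of -0.116 to 0.081 over 9 pairs in MRC5 and -0.151 to 0.033 over 3 pairs in H196). With deviations centred within groups of 3 libraries, this check could not exclude that the numbers pair them. With the replicate block, PIK3CD in H196_Co did not pass (0.22, adjusted p = 0.0725), and no other call on the 7 genes changed.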
